A study of Mus musculus with 6 samples.

Results

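The genes described here are 10 transcripts widely read as output of YAP and TAZ: Ccn1 (formerly Cyr61), Ccn2 (formerly Ctgf), Ankrd1, Amotl1, Amotl2, Ajuba, Lats2, Edn1, Ptpn14 and Fjx1. They were chosen by name as targets and feedback genes of the Hippo pathway, and all 10 were found among the 35275 Ensembl genes of the table. The RNA came from ID8-KMF cells of C57Bl6/J origin, a mouse ovarian cancer line derived from ID8 cells by passage in animals. All 6 libraries carried the Rgnef deletion (Rgnef-/-). In 3 of them, called GFP-Rgnef libraries here, a lentivirus had restored Rgnef fused to GFP. The remaining 3, called knockout libraries, had no construct. Both kinds of cell were growing, subconfluent, on culture plastic with Matrigel. The lentivirus, the GFP tag and Rgnef cannot be told apart in this design. Whether each line was 1 clone or a pool is not given in the sources used here.

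YAP and TAZ are transcriptional coactivators that bind DNA through the TEAD factors. The Hippo kinases LATS1 and LATS2 phosphorylate them and so keep them out of the nucleus, and tension of the actin cytoskeleton favours their entry. Rgnef (Arhgef28) is a guanine nucleotide exchange factor that binds focal adhesion kinase. YAP and TAZ also raise transcription of several of their own inhibitors, among them Lats2, Amotl2 and Ptpn14, a negative feedback. TEAD factors recognise the MCAT element, CATTCC, which reads GGAATG on the other strand.

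The MCAT sequence, the element that TEAD factors bind, was looked for on both strands in the 250 bases before each RefSeq start. The table of promoters (RefSeq, GRCm38.p6) held 8 of the 10 genes, all but Ccn2 and Fjx1. Of these 8 genes, 6 had at least 1 match, against 12.6% of all 32851 promoter windows and 10.6% of the 11252 windows of genes tested here. These shares count windows, and the 8 are genes, with 2 windows for Lats2. In the further lists described below, 2 of 10 other YAP and TAZ targets with a window had a match. So did 8 of 18 genes of the Hippo machinery and 4 of 14 relatives and partners. For SRF targets it was 4 of 11, for TGF-beta targets 1 of 5 and for immediate early genes 2 of 14. No window of the 8 held the AP-1 sequence TGACTCA or the CArG box of SRF. The 8 matches are shown with 12 bases on each side, read so that the MCAT element, in capitals, runs CATTCC. The RefSeq start lies to the right for all but the 2 Ankrd1 sites, whose match is on the opposite strand.
Ccn1: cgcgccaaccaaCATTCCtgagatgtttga
Edn1: cttcatacttttCATTCCaatggggtgact
Amotl2: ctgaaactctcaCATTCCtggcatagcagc
Ptpn14: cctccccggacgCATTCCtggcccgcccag
Ajuba distal: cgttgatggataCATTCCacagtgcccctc
Ajuba proximal: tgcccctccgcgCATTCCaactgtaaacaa
Ankrd1 distal: atgtgagagggtCATTCCtttggcagtgac
Ankrd1 proximal: caggtgaattttCATTCCagacttagtgtc
The element began 103 bases before the start in Ccn1 (position -103), at -65 in Amotl2, -207 in Edn1 and -146 in Ptpn14. Ajuba had it at -186 and -164, and Ankrd1 at -210 and -123. The windows of Amotl1 and both windows of Lats2 had none, which says only that these letters are not within those 250 bases. All 250 bases of the Ankrd1 window lie in an annotated exon of Ankrd1 itself, as do 136 bases in Amotl2 and 56 in Amotl1. The windows of Ajuba, Ccn1, Edn1, Lats2 and Ptpn14 held no exon bases. The windows of Ankrd1, Amotl2, Amotl1 and Lats2 lie inside the gene bounds given below. The Ankrd1 and Amotl2 matches thus lie before the RefSeq start but within the annotated gene. A match is a description of sequence and not evidence of binding.

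**Figure D1:**
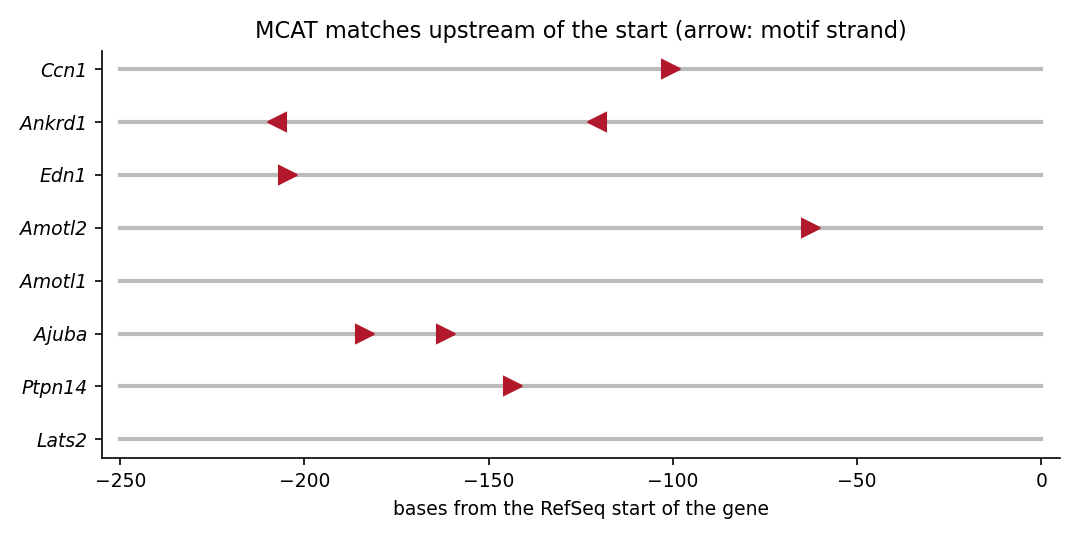
Positions of the MCAT sequence (arrowheads, pointing right where CATTCC lies on the strand of the gene and left where it lies on the other) in the 250 bases before the RefSeq start, in bases. Matches lie between -210 and -60, in 6 of the 8 genes with a promoter window.

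The whole upstream window is given for 2 genes whose RNA moved in opposite directions, Ccn1 (lower in knockout) and Edn1 (higher in knockout), with the MCAT element in capitals. The Ccn1 window is chr3:145649986-145650235 on the minus strand, and the Edn1 window is chr13:42301226-42301475 on the plus strand, both GRCm38.p6. Neither overlaps an annotated exon.
Ccn1 promoter: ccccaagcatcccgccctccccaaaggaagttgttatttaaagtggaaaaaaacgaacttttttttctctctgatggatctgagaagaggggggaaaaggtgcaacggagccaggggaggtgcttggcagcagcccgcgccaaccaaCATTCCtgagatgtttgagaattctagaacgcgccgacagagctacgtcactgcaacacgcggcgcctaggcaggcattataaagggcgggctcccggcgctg
Edn1 promoter: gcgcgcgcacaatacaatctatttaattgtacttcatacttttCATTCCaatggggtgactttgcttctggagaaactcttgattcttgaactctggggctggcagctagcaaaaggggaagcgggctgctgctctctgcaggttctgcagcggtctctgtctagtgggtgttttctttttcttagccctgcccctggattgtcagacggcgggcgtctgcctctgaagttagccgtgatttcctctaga

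Values are FPKM, that is, fragments per kilobase of transcript scaled to the depth of the library, so levels of different genes can be set side by side. Depth was 15898965 to 17977069 reads per library. Rgnef RNA (Arhgef28) followed the labels, at 50.02 to 57.2 FPKM in GFP-Rgnef libraries and 0.110 to 0.134 in knockout libraries. The libraries numbered 3 stood apart from numbers 1 and 2 in both groups, and values without them are given where they matter. Of 9 measured markers of ovarian surface and mesothelial cells, 7 had a mean of at least 0.5 FPKM, led by Krt19 (1188 ± 342.8 FPKM with GFP-Rgnef and 1085 ± 352.9 in knockout libraries). Their median difference was 0.07, and 1 of the 7 passed the test, as did 13.4% of all tested genes. This was Krt18, which fell (difference -0.51 in log2(FPKM + 1), limma adjusted p = 0.00625). Upk3b had 92.3 ± 43.1 and 251.1 ± 116.7 FPKM (difference 1.43, limma adjusted p = 0.0878), and Nkain4 had a difference of 0.62 (limma adjusted p = 0.0711). Their sum was 1650.0 to 2458 FPKM with GFP-Rgnef and 1546 to 2477 in knockout libraries. The 6 leukocyte markers summed to 2.18 to 3.44 and 2.20 to 3.82 FPKM, nearly all of it Cd68 (2.62 ± 0.713 and 2.83 ± 0.858 FPKM), with Cd3e and Adgre1 listed at 0 in all libraries. The 6 endothelial markers summed to 95.8 to 108.4 and 85.9 to 145.9 FPKM, nearly all of it Tek, with Kdr listed at 0. The 6 markers of fibroblasts and muscle, none listed at 0 throughout, summed to 47.2 to 71.2 FPKM with GFP-Rgnef and 34.2 to 44.2 in knockout libraries. Its 3 tested genes went different ways, with a median difference of 0.49. Dcn had 58.9 ± 13.8 and 32.8 ± 8.32 FPKM (limma adjusted p = 0.0426), a call lost after chromosome centring (0.0624) and without any 1 library other than GFP-Rgnef library 3 (0.054 to 0.14). Col1a1 had 1.79 ± 1.08 and 5.52 ± 2.95 FPKM (limma adjusted p = 0.051), and Pdgfra had 0.436 ± 0.0923 and 1.04 ± 0.431 FPKM (limma adjusted p = 0.114). The part of this list in the results below was not tested. The labels do not say whether the 3 libraries of a group were separate cultures, so the p-values measure library-to-library spread, possibly only technical spread. In bulk RNA, fewer cells with a transcript and less of it per cell cannot be told apart.

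The 10 genes did not move as a block. In the knockout libraries 4 rose (Edn1, Amotl2, Amotl1 and Ccn2), 1 fell (Ccn1) and 5 did not pass the test (limma, Benjamini-Hochberg adjusted p below 0.05). Among all 11500 genes tested, 8.04% rose and 5.34% fell. All 10 genes passed the filter on low values, and their median difference was 0.38 in log2(FPKM + 1), knockout minus GFP-Rgnef, against -0.02 over all tested genes. For 7 of the 10 the knockout and GFP-Rgnef libraries did not overlap, which was so for 33.4% of tested genes. Of these 7, 6 were higher in knockout, as were 16.7% of tested genes, and Ccn1 was lower, as were 16.7%.

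**Figure D2:**
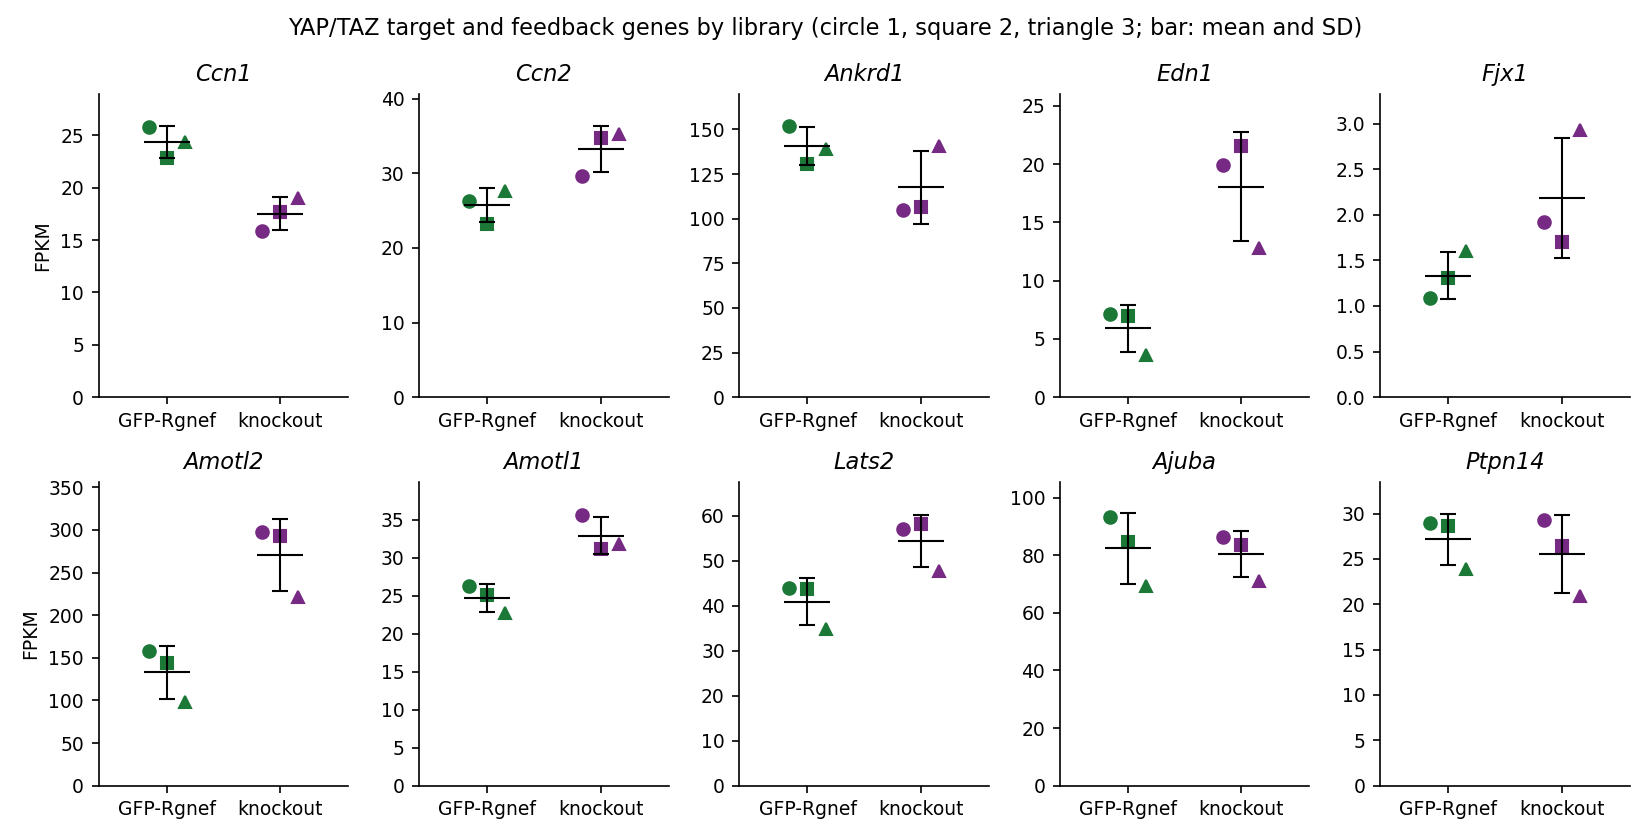
FPKM of the 10 genes in each library (points: circle, library 1; square, library 2; triangle, library 3), with the group mean and SD (bar, n = 3), GFP-Rgnef in green and knockout in purple. The groups overlap for Ankrd1, Ajuba and Ptpn14, and Ccn1 is the only gene of the other 7 with lower values in knockout.

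Of the 10 genes, Edn1 had the largest difference. It encodes endothelin-1, a secreted peptide that constricts vessels. Edn1 (ENSMUSG00000021367, GRCm38 chr13:42301476-42307990, plus strand) measured 7.17, 6.92 and 3.61 FPKM in GFP-Rgnef libraries 1, 2 and 3 and 19.9, 21.5 and 12.8 in knockout libraries 1, 2 and 3. The lowest knockout library lay above the highest GFP-Rgnef library, and library 3 was the lowest of its group on both sides. Means were 5.90 ± 1.99 and 18.1 ± 4.66 FPKM (SD, n = 3), a 3.06-fold rise. The difference in log2(FPKM + 1) was 1.48 (SE 0.253, limma adjusted p = 0.00853), and 38 of the 11500 tested genes had a larger positive difference. The call held with any 1 library left out (limma adjusted p from 0.0057 to 0.0435).

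The remaining genes of the endothelin system differed in level. Ece1, the enzyme that cleaves the precursor to active endothelin, rose from 49.1 ± 4.08 to 68.4 ± 6.45 FPKM (difference 0.47, SE 0.0911, limma adjusted p = 0.0141). Edn2, a related ligand gene, measured 3.15 ± 1.20 FPKM with GFP-Rgnef against 3.65 ± 1.42 FPKM in knockout libraries (limma adjusted p = 0.78). The receptor genes were near 0 in every library: Ednra had at most 0.0353 FPKM and Ednrb at most 0.0320 FPKM in any library. Reads recovered from the FPKM, which can be too low for such genes, were at most 2 for each. The RNA for ligand and converting enzyme was thus measured in cells with almost no receptor RNA.

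Ccn1 and Ccn2, the best known YAP targets, encode related secreted matricellular proteins that bind integrins, and they moved in opposite directions. Ccn1 (ENSMUSG00000028195, chr3:145646976-145649981, minus strand) measured 25.8, 22.8 and 24.4 FPKM in GFP-Rgnef libraries and 15.9, 17.7 and 19.02 in knockout libraries. Every knockout library lay below every GFP-Rgnef library. Means were 24.3 ± 1.51 and 17.5 ± 1.59 FPKM, a difference of -0.45 (SE 0.0890, limma adjusted p = 0.0144), so Ccn1 was 1.39-fold higher with GFP-Rgnef. Without GFP-Rgnef library 1 or knockout library 2 the limma adjusted p was 0.0595 or 0.0561, with differences of -0.41 and -0.46.

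Ccn2 (ENSMUSG00000019997, chr10:24595442-24598683, plus strand) measured 26.4, 23.2 and 27.6 FPKM in GFP-Rgnef libraries and 29.7, 34.8 and 35.3 in knockout libraries. The groups did not overlap, with GFP-Rgnef library 3 and knockout library 1 the nearest. Means were 25.7 ± 2.28 and 33.2 ± 3.11 FPKM, a 1.29-fold rise with a difference of 0.36 (SE 0.0963, limma adjusted p = 0.0453). The call was lost without GFP-Rgnef library 1 or 2 or knockout library 2 or 3, with limma adjusted p from 0.0983 to 0.162, and with 3 other settings (no filter, no trend and chromosome centring).

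Set against each other within a library, Ccn2 and Ccn1 were nearly equal in the GFP-Rgnef cells and far apart in the knockout cells. The ratio of Ccn2 to Ccn1 was 1.02, 1.02 and 1.13 in GFP-Rgnef libraries and 1.87, 1.97 and 1.86 in knockout libraries, and it does not depend on how libraries were scaled. Its means were 1.056 ± 0.0650 and 1.90 ± 0.0597. The exact two-sided permutation test gave p = 0.1, the smallest that 3 against 3 libraries allow. No other p was possible, because Ccn1 and Ccn2 each separated the groups, in opposite directions. This ratio was 1 of 2 computed, both chosen after the values were seen, and the Benjamini-Hochberg adjusted p was also 0.1. Another gene of the family, Ccn4, rose from 76.9 ± 5.50 to 131.1 ± 10.1 FPKM (difference 0.76, SE 0.0817, limma adjusted p = 0.00157), and held its call with any 1 library left out. Ccn3, Ccn5 and Ccn6 had at most 0.583 FPKM in any library.

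Ankrd1, an ankyrin repeat cofactor first known from heart muscle, was among the most abundant of the 10 genes. Ankrd1 (ENSMUSG00000024803, chr19:36111961-36120099, minus strand) measured 151.9, 130.6 and 139.3 FPKM in GFP-Rgnef libraries and 104.9, 106.8 and 140.9 in knockout libraries. Knockout library 3 lay within the range of the GFP-Rgnef libraries and the other 2 below it. Means were 140.6 ± 10.7 and 117.5 ± 20.3 FPKM, and the difference of -0.27 (SE 0.118, limma adjusted p = 0.18) did not pass. Without knockout library 3 it was -0.40 (limma adjusted p = 0.0194), and without both libraries numbered 3 it was -0.41 (limma adjusted p = 0.00794), both calls. Ankrd1 was not called without any 1 other library (limma adjusted p from 0.23 to 0.432) or after removal of chromosome medians (0.359).

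Fjx1, a Golgi kinase gene of the Four-jointed family that acts on the Fat and Dachsous cadherins, was the lowest of the 10. Fjx1 (ENSMUSG00000075012, chr2:102449366-102452499, minus strand) measured 1.09, 1.30 and 1.61 FPKM with GFP-Rgnef and 1.92, 1.70 and 2.93 in knockout libraries, from 58 to 154 reads. The groups did not overlap, and library 3 was the highest on both sides. The difference of 0.44 (SE 0.167, limma adjusted p = 0.128) did not pass. Fat1, which encodes a large cadherin upstream of Hippo signalling, rose from 19.1 ± 0.888 to 27.3 ± 4.61 FPKM (difference 0.48, SE 0.116, limma adjusted p = 0.0301). The Fat1 call held without knockout library 3 and was lost without any 1 of the other 5 libraries (limma adjusted p from 0.0649 to 0.102).

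Fat1, Ccn4 and Ece1 belong to a list of 19 relatives and partners of the 10 genes. Of the 9 tested, 4 rose and 0 fell, where 8.04% and 5.34% of all tested genes did, with a median difference of 0.16. The other to rise was Limd1, an Ajuba relative on chromosome 9 (difference 0.26, limma adjusted p = 0.0392, and -0.03 after removal of the chromosome median). Limd1 was not called with any 1 library left out (limma adjusted p from 0.0723 to 0.114), so 2 of the list rose without any 1 library other than knockout library 3. In those fits 458 to 848 of all tested genes rose, against 925 with all libraries.

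Among the feedback genes, Amotl2 had the largest difference. Amotl2 and Amotl1 are angiomotins, which bind YAP at junctions and on actin filaments and activate the LATS kinases. Amotl2 (ENSMUSG00000032531, chr9:102716672-102733418, plus strand) measured 158.1, 143.3 and 98.3 FPKM in GFP-Rgnef libraries and 297.2, 293.1 and 221.8 in knockout libraries. All knockout libraries lay above all GFP-Rgnef libraries, and library 3 was the lowest of each group. Means were 133.2 ± 31.1 and 270.7 ± 42.4 FPKM, a 2.03-fold rise with a difference of 1.03 (SE 0.181, limma adjusted p = 0.00922). In knockout libraries Amotl2 was the most abundant of the 10 genes, and its call held with any 1 library left out (limma adjusted p from 0.00779 to 0.048).

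Amotl1 (ENSMUSG00000013076, chr9:14541966-14645056, minus strand) measured 26.3, 25.1 and 22.7 FPKM in GFP-Rgnef libraries and 35.7, 31.2 and 31.8 in knockout libraries, without overlap. Means were 24.7 ± 1.85 and 32.9 ± 2.44 FPKM, with a difference of 0.40 (SE 0.0854, limma adjusted p = 0.0198). Without GFP-Rgnef library 2, knockout library 1 or knockout library 2 the limma adjusted p was 0.0687, 0.0626 or 0.0515. The third angiomotin, Amot on the X chromosome, fell below the filter and was looked at after its values were seen. Reads of Amot recovered from the FPKM were 1, 1 and 0 in GFP-Rgnef libraries and 78, 58 and 40 in knockout libraries, up to 1.04 FPKM. Amot passed in the fit without a filter (limma adjusted p = 0.00851). All 3 angiomotin genes therefore had more RNA in every knockout library than in any GFP-Rgnef library. Such a separation was found for 16.7% of the 11500 tested genes, which do not include Amot. The other 2 share a chromosome whose genes were shifted upward, as described next.

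Amotl1 and Amotl2 both lie on chromosome 9, where the median difference of the 639 tested genes was 0.28. Medians on the chromosomes of the other 8 genes lay between -0.06 and -0.01. Within 2 Mb of Amotl2 the median of 16 tested neighbours was 0.43, with 11 called higher, and within 2 Mb of Amotl1 the median of 19 neighbours was 0.27, with 2 called higher. With the median deviation of each chromosome removed from each library, the difference of Amotl2 was 0.74 (SE 0.183, limma adjusted p = 0.0471) and that of Amotl1 was 0.11 (SE 0.0857, limma adjusted p = 0.513). Amotl2 thus kept its call and Amotl1 lost it. The ratio of Amotl2 to Amotl1, both on this chromosome, was 6.01, 5.72 and 4.34 in GFP-Rgnef libraries and 8.33, 9.41 and 6.97 in knockout libraries (exact two-sided permutation p = 0.1, the smallest possible, also after adjustment). For Edn1 and Ccn1 the same removal gave 1.49 and -0.44 and kept both calls, while Ccn2 had 0.37 with a limma adjusted p of 0.0523.

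**Figure D3:**
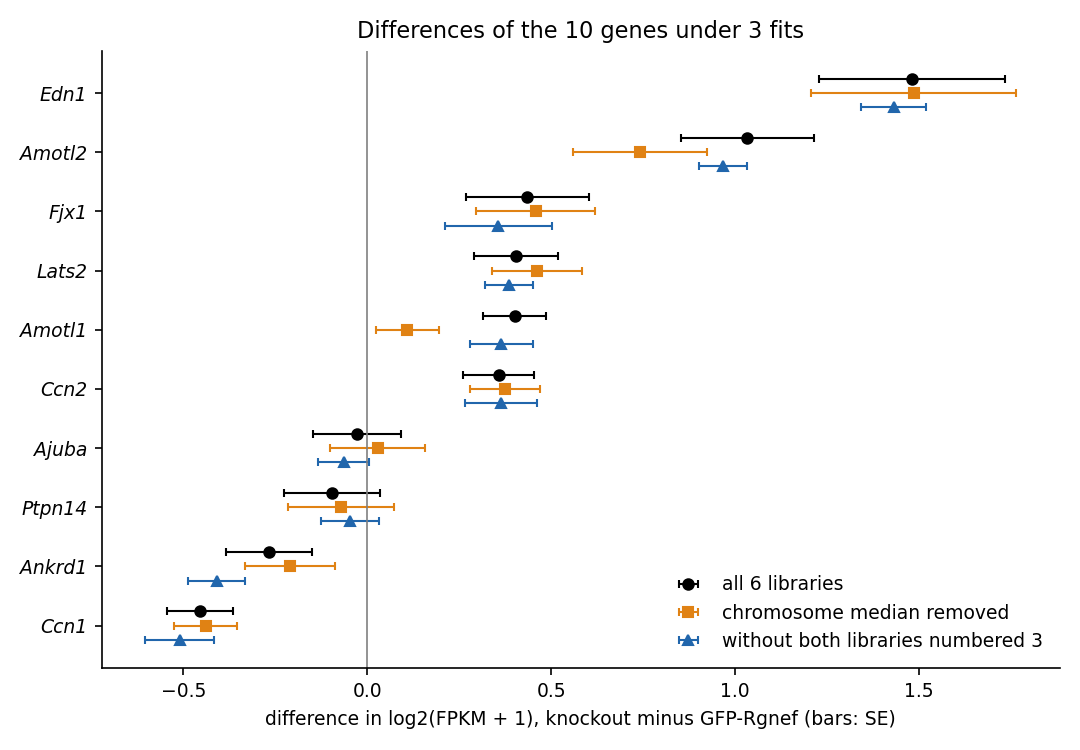
Difference in log2(FPKM + 1), knockout minus GFP-Rgnef, for the 10 genes (points, with SE) from all 6 libraries, after removal of each chromosome's median deviation, and without both libraries numbered 3. Removal of the chromosome median takes Amotl1 from 0.40 to 0.11 and Amotl2 from 1.03 to 0.74, and the SE of Edn1 and Amotl2 is smaller without the libraries numbered 3.

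The remaining feedback genes split into Lats2, which was higher in knockout just outside the threshold, and Ajuba and Ptpn14, which overlapped. Lats2, a kinase that phosphorylates YAP and TAZ (ENSMUSG00000021959, chr14:57689662-57758388, minus strand), measured 43.9, 43.8 and 34.9 FPKM with GFP-Rgnef and 57.1, 58.1 and 47.6 in knockout libraries, without overlap. Means were 40.9 ± 5.19 and 54.3 ± 5.80 FPKM, and the difference was 0.40 (SE 0.114, limma adjusted p = 0.0523). Lats2 passed without knockout library 3 (limma adjusted p = 0.028), without both libraries numbered 3 (0.00448) and by voom on reads recovered from the FPKM (0.0435). It did not pass without any 1 other library (limma adjusted p from 0.081 to 0.176) or without a filter on low values (0.112). Its relative Lats1 measured 20.8 ± 1.94 FPKM with GFP-Rgnef against 23.4 ± 0.860 FPKM in knockout libraries (limma adjusted p = 0.246).

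Ajuba, a LIM protein that holds LATS kinases at junctions and restrains them (ENSMUSG00000022178, chr14:54567472-54577558, minus strand), measured 93.2, 84.7 and 69.1 FPKM with GFP-Rgnef and 86.5, 83.5 and 71.2 in knockout libraries. The difference was -0.03 (SE 0.119, limma adjusted p = 0.913), and libraries of the same number were closer to each other than libraries 1 and 3 of the same group. Ptpn14, a phosphatase that retains YAP in the cytoplasm (ENSMUSG00000026604, chr1:189728268-189876695, plus strand), measured 28.9, 28.7 and 23.9 FPKM with GFP-Rgnef and 29.3, 26.4 and 20.9 without. Its difference was -0.10 (SE 0.130, limma adjusted p = 0.699). Both genes have MCAT matches upstream, as do Edn1, which rose, and Ccn1, which fell.

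The library numbered 3 shifted most of the 10 genes the same way in both groups. Compared with the mean of libraries 1 and 2 in log2(FPKM + 1), library 3 was lower in both groups for 6 genes, namely Amotl1, Amotl2, Ajuba, Lats2, Edn1 and Ptpn14, and higher in both for Ccn1, Ccn2 and Fjx1. Ankrd1 went opposite ways. Over all tested genes the direction was shared by 68.9%. For Edn1 the offset was -0.80 with GFP-Rgnef and -0.66 without, while libraries 1 and 2 differed by 0.04 and 0.11. For Amotl2 it was -0.61 and -0.41, with 0.14 and 0.02 between libraries 1 and 2. All 5 feedback genes were thus lower in library 3 than the mean of libraries 1 and 2. For Amotl1 in knockout libraries the offset was only -0.06, with 0.19 between libraries 1 and 2. Ccn1 and Ccn2 were 0.01 and 0.15 higher with GFP-Rgnef and 0.17 and 0.13 higher without. Between libraries 1 and 2 they differed by 0.17 and 0.18 with GFP-Rgnef and by 0.15 and 0.22 without. Except for Ccn1 in knockout libraries, their offsets were smaller than that spread. Without both libraries numbered 3, 5 of the 10 genes rose and 2 fell, where 11.2% and 9.25% of the 11451 genes tested did (20.4% in all). Lats2 joined those that rose and Ankrd1 those that fell.

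**Figure D4:**
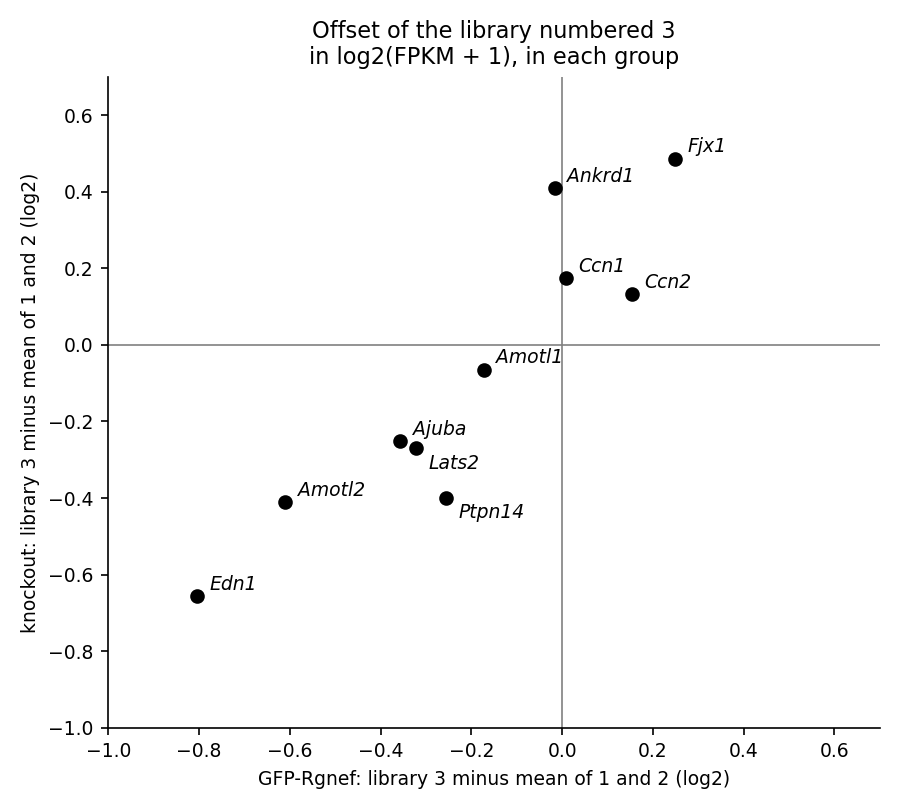
Offset of library 3 from the mean of libraries 1 and 2, in log2(FPKM + 1), in the GFP-Rgnef group (horizontal) and the knockout group (vertical), 1 point for each of the 10 genes. The 5 feedback genes and Edn1 lie in the lower left, with Edn1 at -0.80 and -0.66, and Fjx1, Ccn1 and Ccn2 in the upper right.

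In level, Ankrd1 (140.6 FPKM) and Amotl2 (133.2 FPKM) led in GFP-Rgnef libraries with ranges that overlapped, followed by Ajuba (82.3 FPKM) and Lats2 (40.9 FPKM). Ptpn14, Ccn2, Amotl1 and Ccn1 followed between 27.2 and 24.3 FPKM with overlapping ranges, and Edn1 (5.90 FPKM) and Fjx1 (1.33 FPKM) were lowest. In knockout libraries Amotl2 (270.7 FPKM) stood above Ankrd1 (117.5 FPKM) without overlap, and Ajuba (80.4 FPKM) and Lats2 (54.3 FPKM) followed without overlap. Ccn2 (33.2 FPKM) and Amotl1 (32.9 FPKM) overlapped, Ptpn14 (25.5 FPKM) lay below both, and the ranges of Edn1 (18.1 FPKM) and Ccn1 (17.5 FPKM) overlapped each other and, for Edn1, that of Ptpn14. Fjx1 (2.19 FPKM) was again lowest.

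Other published YAP and TAZ targets, were followed in a list of 15 genes that holds none of the 10. Among its 13 tested members 3 were called higher, 0 were called lower and 10 did not pass, and the median difference was 0.10. Of all tested genes 8.04% were called higher and 5.34% lower. Ccdc80, a secreted matrix protein gene, rose from 24.2 ± 3.41 to 60.7 ± 3.997 FPKM (difference 1.30, SE 0.104, limma adjusted p = 0.000344). The receptor kinase gene Axl rose by 0.44 (limma adjusted p = 0.011). Axl lies on chromosome 7, where the median difference of the 819 tested genes was 0.24. After that median was removed it had 0.19 (limma adjusted p = 0.242). Nuak2, a kinase gene, rose from 3.02 ± 0.448 to 6.10 ± 1.90 FPKM (difference 0.79, limma adjusted p = 0.0373). Without GFP-Rgnef library 2, 1 gene of this list rose, where 458 of 11504 tested genes did, with Axl at a limma adjusted p of 0.0573. Nuak2 was not called without any 1 library other than knockout library 3 (limma adjusted p from 0.0741 to 0.136) or after removal of chromosome medians (0.0557).

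Of the Hippo machinery itself, with the kinases, YAP, TAZ, TEADs and cofactors, 6 of 21 genes tested were called higher and 1 was called lower. The shares over all tested genes were 8.04% and 5.34%. The median difference of the list was 0.12. Vgll3, a TEAD cofactor that competes with YAP, rose from 0.354 ± 0.175 to 6.001 ± 0.801 FPKM (difference 2.37, limma adjusted p = 9.19e-05), and Tead1 rose from 69.7 ± 1.18 to 109.9 ± 8.12 FPKM (difference 0.65, limma adjusted p = 0.00167). Tead1 lies on chromosome 7, and after that chromosome's median was removed it had 0.40 (limma adjusted p = 0.012). Tead4 fell from 35.9 ± 2.47 to 24.9 ± 2.99 FPKM (difference -0.52, limma adjusted p = 0.0131). Yap1, on chromosome 9, rose by 0.34 and had 0.04 after the chromosome median was removed (limma adjusted p = 0.00925 and 0.719). Wwtr1, the gene for TAZ, which was named after its values were seen, rose by 0.28 (limma adjusted p = 0.0414, and 0.0511 after removal of chromosome medians). After removal of chromosome medians 3 genes of this list rose, where 491 of all 11500 tested genes did. Without GFP-Rgnef library 1 or knockout library 1 again 3 rose, against 525 of 11510 and 588 of 11467 genes. Without GFP-Rgnef library 2 only 2 rose, against 458 of 11504 genes, and Yap1 was at a limma adjusted p of 0.0513. Tead4 was at 0.0523, 0.0508 or 0.0515 without GFP-Rgnef library 1, GFP-Rgnef library 2 or knockout library 2, and Wwtr1 at 0.0541 to 0.157 without any 1 library other than knockout library 3. Vgll3 and Tead1 kept their calls with any 1 library left out.

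**Figure D5:**
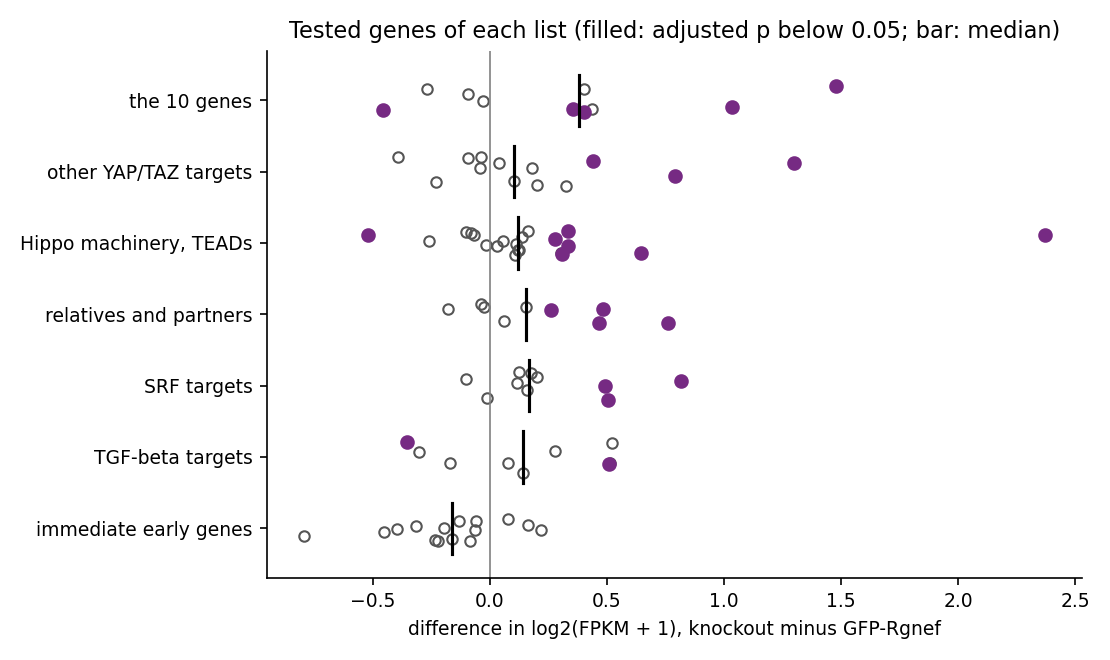
Difference in log2(FPKM + 1), knockout minus GFP-Rgnef, of each tested gene (circles; filled where the limma adjusted p was below 0.05) in the 10 genes and 6 further lists, with the list median (bar). The medians are 0.38 for the 10 genes, 0.10 for other YAP and TAZ targets, 0.12 for the Hippo machinery and -0.16 for immediate early genes.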

How the data were processed

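The authors deposited 1 table of FPKM values for 6 libraries, 3 per group. Per the submitters' processing notes the tools were CASAVA 1.8, TopHat2 2.0.9 and DESeq2, with genome build mm10, and the counter, annotation and use of strand are not given in the sources used here. GENCODE M 21 (GRCm38) supplied gene symbols and positions and matched 34490 identifiers and left 785. Genes averaging 0.5 FPKM or more (11500) were tested by limma 3.58.1 with trend in R 4.3.3, after a log2(FPKM + 1) transform. P-values were adjusted by Benjamini-Hochberg over these genes, and below 0.05 a gene was called. Such differences understate the change of low genes. Whole reads were recovered from the FPKM by finding for each gene a length that made all its values whole within 0.002. This was the annotated exon length for 3968 genes and otherwise the smallest such length (15686 genes). The smallest length may understate the reads of genes with few. The recovered reads made up 99.77% to 99.85% of the implied depth. The fit was also run on simulated reads with known changes, drawn independently for each library with a single dispersion. That simulation held no shared offset of the libraries numbered 3 and no chromosome shift, so it cannot show how the fit handles these. Figures and tables used Python 3.11.15, pandas 2.3.3 and matplotlib 3.10.9. The 10 genes, the other lists and the motifs were chosen with earlier results of these data known. By rule the text names all 10, the best called genes by p of each further list (4 at most, with abundant genes making up 2 where fewer passed), and the 3 genes most correlated with Ccn1 and with Ccn2. Exons of Ccn2 and Ptpn14 overlap opposite-strand genes at under 1% of their level. Alternatives covered the pseudocount (0.1 and 5), the filter, scaling, the variance model, voom on recovered reads, the replicate number as a block, chromosome centring and left-out libraries.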

Additional observations from a re-analysis of the deposited data

How the results depend on the processing

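Over 17 alternatives to the reported fit, Edn1 and Amotl2 kept direction and call in all. With 1 library left out, 2 to 4 of the 10 genes rose and 0 to 2 fell, against 4 and 1, and over all genes 458 to 848 rose and 198 to 580 fell, against 925 and 614. Chromosome centring left 2 of the 10 rising, and over all genes 491 rose and 384 fell. Without both libraries numbered 3, 2 of the 10 fell, and 1059 of all genes fell. Without a filter 394 of all genes fell. Ccn2 was also not called without limma's trend (limma adjusted p = 0.0647), without a filter (0.0878) and with centring (0.0523). Ajuba and Ptpn14, not called, changed sign, Ajuba to 0.029 with centring and between -0.15 and 0.065 with 1 library left out, Ptpn14 between -0.20 and 0.038. The cause of these changes was not tested beyond the values given. With the replicate number as a block, 1517 of all genes rose and 1253 fell, and Lats2 (limma adjusted p = 0.00112) and Fjx1 (0.0367) were called, and 4 immediate early genes fell and 1 rose. The numbers share deviations only in part, with correlations of 0.32, -0.02 and 0.55 for numbers 1, 2 and 3, and GFP-Rgnef 2 correlated best with another number, so the block is not the reported fit. At a mean FPKM of at least 5 Fjx1 has no value. Scalings moved the median of all genes by under 0.1. Few reads limit Fjx1 and Amot.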

Other observations

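Genes that share other regulators with Ccn1, Ccn2, Ankrd1 and Edn1 were looked at in 3 further lists. The counts below stand beside 8.04% of all tested genes that rose and 5.34% that fell. Of 10 tested targets of SRF, the serum response factor, 3 rose and 0 fell, with a median difference of 0.17 in log2(FPKM + 1), knockout minus GFP-Rgnef. Thbs1, a matricellular glycoprotein gene, rose from 4.31 ± 0.540 to 8.41 ± 1.52 FPKM (SD, n = 3, limma adjusted p = 0.00835), Tpm1 (tropomyosin, on chromosome 9) rose by 0.51 and Cnn2 (calponin) by 0.49. Tpm1 had 0.22 after removal of chromosome medians (limma adjusted p = 0.0652), and Cnn2 was not called without GFP-Rgnef library 2 (limma adjusted p = 0.0614). Of 9 tested targets of TGF-beta 1 rose and 1 fell, namely Smad6, an inhibitory SMAD gene, from 73.8 ± 7.59 to 105.2 ± 10.1 FPKM, and Id1, from 148.6 ± 9.02 to 116.2 ± 6.44. Smad6, on chromosome 9, had 0.22 after removal of chromosome medians (limma adjusted p = 0.221), and Id1 was not called without GFP-Rgnef library 2, knockout library 1 or knockout library 2 (limma adjusted p of 0.0648, 0.0534 and 0.0708). Without both libraries numbered 3, 3 of the TGF-beta targets rose and 3 fell, where 11.2% and 9.25% of all tested genes did. Of 15 tested immediate early genes 0 passed by limma, and the median was -0.16. An unadjusted limma p below 0.05 was found for 5 of the 15, for 4 of the 10 SRF targets and for 4 of the 9 TGF-beta targets. The share over all tested genes was not counted, so this is no result about the list. By voom on recovered reads 1 fell, and by limma without trend 1 fell, where 577 and 502 of all 11500 tested genes did. Without both libraries numbered 3, 3 fell, where 9.25% of all tested genes did. Without knockout library 3 alone 3 fell, where 580 of the 11463 genes tested did. Klf4 measured 182.3 ± 4.62 FPKM with GFP-Rgnef against 160.4 ± 26.6 FPKM in knockout libraries (limma adjusted p = 0.31), and Jun had 76.6 ± 4.90 and 81.2 ± 9.64 FPKM (limma adjusted p = 0.649).

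Among 8332 other genes with a mean of at least 5 FPKM, those whose log2(FPKM + 1) followed Ccn1 most closely over the 6 libraries were Nup54, Tnfaip3 and Rps27 (Pearson r of 0.997, 0.992 and 0.987). Those most like Ccn2 were Rhobtb3, Cyb5r4 and Tsc22d2 (Pearson r of 0.992, 0.992 and 0.991). These are descriptions over 6 libraries that share their group structure.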
